A study of Mus musculus with 25 samples.

Results

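Platelets have no nucleus and carry messenger RNAs inherited from megakaryocytes, the large bone marrow cells that shed them, so the same transcripts mark both. The set described here holds 10 such genes, chosen by name: Ppbp, Pf4, Tubb1, Gp1ba, Gp5, Gp6, Gp9, Itga2b, Itgb3 and Treml1. All 10 were found among the 24537 genes of a table of raw read counts from 25 mouse livers. The mice were C57BL6/J males aged 24 months. They carried a p53 knockout (p53KO) or a knockout of Rosa26, a locus used as the control target (Rosa26KO), and were fed a control diet or a high-fat diet (HFD). The groups are written as diet and genotype: Control_Rosa26KO, HFD_Rosa26KO and Control_p53KO held 6 libraries each and HFD_p53KO held 7. Each genotype was thus seen on both diets, and no group was free of a knockout. How the knockouts were made, in which cells, and whether each library came from a separate animal was not given in the sources used here, so the p-values below measure only the spread between libraries.

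Megakaryocytes fill alpha granules with chemokines and adhesion proteins and coat the platelet surface with receptors that bind von Willebrand factor, collagen and fibrinogen. The liver is the main source of thrombopoietin, the hormone that sustains megakaryocytes, and it clears aged platelets from the blood. In a whole piece of liver these transcripts can come from platelets in blood left in the tissue or from megakaryocytes lodged there, and the livers' own cells make some of them. Fewer cells of a type and less RNA per cell cannot be told apart in bulk tissue.

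Library totals ran from 16324283 to 21501281 counts, and levels are given as CPM, counts scaled to a common library size. The median library is the middle library of the 25 for the gene or sum named. Of the 10 genes, 6 passed the filter on low counts (Ppbp, Pf4, Tubb1, Gp1ba, Itga2b and Itgb3) and entered the main test with 14133 genes. Gp5, Gp6, Gp9 and Treml1 did not pass, and their tests come from a fit with no filter. Trp53, the gene of p53, averaged 36.8 ± 4.80 CPM (SD, n = 6) in the Rosa26KO livers on control diet and 37.1 ± 4.56 (n = 6) in those on HFD. In p53KO livers it averaged 24.1 ± 6.89 CPM on control diet (SD, n = 6) and 26.0 ± 4.47 on HFD (n = 7). Its genotype differences did not pass the threshold (edgeR, adjusted p = 0.453 on control diet and 0.9998 on HFD). A library named HFD_Rosa26KO 6 stood apart for the platelet genes, and Control_p53KO 3 stood apart for Pf4. Fold changes that use either are given with and without it for the members they turn on.

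Promoters of 4 of the genes are shown. Ppbp and Pf4 are neighbouring chemokine genes with different highest libraries. Gp1ba and Gp5 encode partners in 1 receptor and had the same highest and second highest library. Those 2 libraries, HFD_Rosa26KO 6 and 1, were also the top 2 for Ppbp, and HFD_Rosa26KO 1 was second for 7 of the 10 genes. Over all 25 libraries the ranks of the first pair were no less alike (Spearman's rho 0.50) than those of the second (0.40). The contrast between the pairs thus concerns their top libraries only. For Pf4 these were Control_p53KO 3, then HFD_Rosa26KO 6, then Control_Rosa26KO 3. For Ppbp they were HFD_Rosa26KO 6, then HFD_Rosa26KO 1, then Control_p53KO 3. The sequences are the 250 bases before each RefSeq start site on GRCm38.p6, written along the gene's own strand. Capitals mark matches to a GATA or an ETS motif on either strand. The GATA motif was searched as AGATAA, then as AGATAG, then as TGATAA and last as TGATAG, and the ETS motif as AGGAAG.
Ppbp: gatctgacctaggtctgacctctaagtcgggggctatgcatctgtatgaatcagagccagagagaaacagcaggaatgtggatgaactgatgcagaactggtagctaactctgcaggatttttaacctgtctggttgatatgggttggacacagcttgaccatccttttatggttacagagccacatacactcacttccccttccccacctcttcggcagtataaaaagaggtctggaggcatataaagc
Pf4: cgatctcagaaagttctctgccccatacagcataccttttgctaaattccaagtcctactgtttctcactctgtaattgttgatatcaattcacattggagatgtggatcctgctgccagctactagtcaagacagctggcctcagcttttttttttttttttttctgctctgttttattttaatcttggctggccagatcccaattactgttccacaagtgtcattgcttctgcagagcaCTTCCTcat
Gp1ba: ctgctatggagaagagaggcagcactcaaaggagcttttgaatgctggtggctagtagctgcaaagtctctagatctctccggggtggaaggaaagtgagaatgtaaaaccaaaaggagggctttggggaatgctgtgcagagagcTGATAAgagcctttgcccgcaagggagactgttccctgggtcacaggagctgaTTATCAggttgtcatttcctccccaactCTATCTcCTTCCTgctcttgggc
Gp5: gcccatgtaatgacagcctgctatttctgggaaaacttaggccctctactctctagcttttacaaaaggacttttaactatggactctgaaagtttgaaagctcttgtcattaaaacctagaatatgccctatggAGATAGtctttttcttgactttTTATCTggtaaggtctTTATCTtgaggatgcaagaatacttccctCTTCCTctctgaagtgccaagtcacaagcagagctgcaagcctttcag
These windows lie at chr5:90768268-90768517 (plus strand) for Ppbp, chr5:90772185-90772434 (plus) for Pf4, chr11:70638872-70639121 (plus) for Gp1ba and chr16:30310782-30311031 (minus) for Gp5. Factors of the GATA and ETS families are classical regulators of megakaryocyte genes, with RUNX and NF-E2. The Ppbp window held neither capitalised motif, and the Pf4 window held an ETS match that began 9 bases before the start. The Gp1ba window held 3 GATA matches, beginning 104, 51 and 23 bases before the start, and an ETS match at 16 bases. The Gp5 window also held 3 GATA matches, at 115, 93 and 77 bases, and an ETS match at 48 bases.

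Promoter windows were found for 9 of the 10 genes, all but Itgb3. An ETS match was present in 6 of the 9 and in 29.5% of all 32851 promoter windows of the same length. A GATA match was present in 3 of the 9 (Gp1ba, Gp5 and Gp6) and in 26.5% of all windows, and both motifs were present in 2 of the 9 and in 7.78% of all. A RUNX motif (TGTGGT) was present in 1 of the 9, Gp9, against 14.0% of all windows. An NF-E2 motif (TGAGTCA) was present in 0 of the 9, against 4.46%. No 2 of these motifs overlapped in the members' windows. These matches describe letters in the window only.

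The dominant pattern was 1 library. HFD_Rosa26KO 6 held the highest CPM of the 25 libraries for 9 of the 10 genes, whereas 3% of all genes tested were highest in it. It held the second highest value of Pf4, which was highest in Control_p53KO 3, where 17.7% of all genes tested were highest. HFD_Rosa26KO 1 held the second highest value for 7 of the 10 and for 2.54% of all genes tested. Summed over the 10 genes, HFD_Rosa26KO 6 reached 322.3 CPM, Control_p53KO 3 reached 72.4, HFD_Rosa26KO 1 reached 38.5 and the median library 13.8. The group medians of that sum lay close together, at 12.1 CPM (Control_Rosa26KO), 14.6 (HFD_Rosa26KO), 13.3 (Control_p53KO) and 14.3 (HFD_p53KO). The coefficient of variation over the 25 libraries ran from 151% (Itgb3) to 359% (Gp6), against a median of 19.9% for all genes tested.

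**Figure D1:**
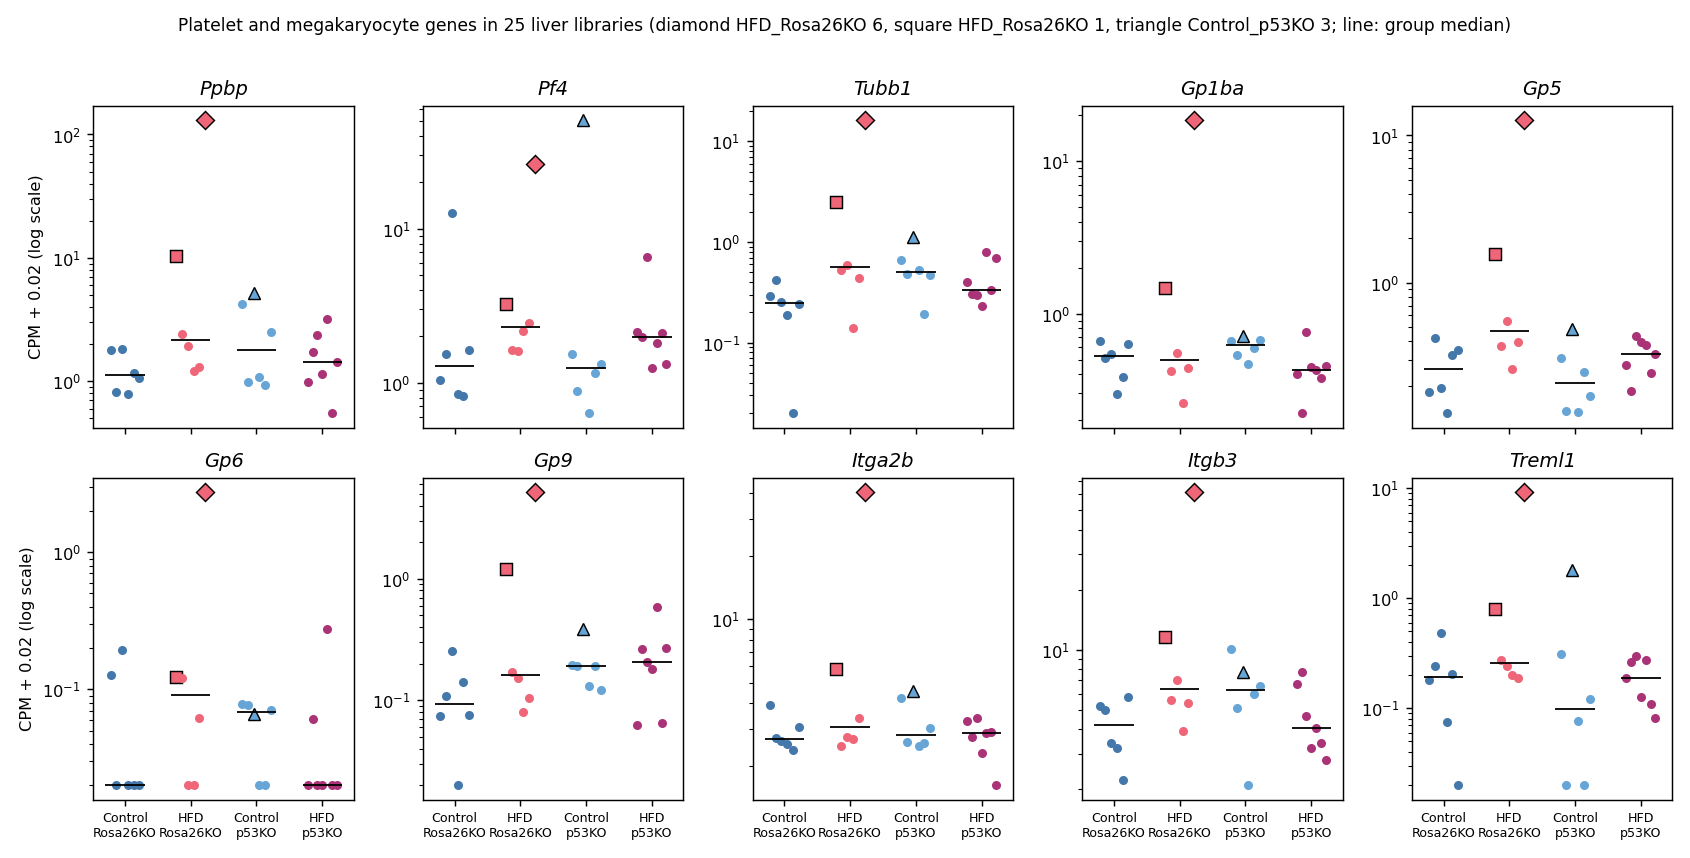
Level of each of the 10 genes in each library (CPM plus 0.02, log axis), by group, with a line at the group median. The diamond, HFD_Rosa26KO 6, is the top point of 9 panels, and the triangle, Control_p53KO 3, is the top point for Pf4.

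Ppbp and Pf4 encode the granule chemokines CXCL7 and platelet factor 4. They sit side by side on chromosome 5 of GRCm38, Ppbp at 90768518 to 90770063 and Pf4 at 90772435 to 90773383, with 2371 bases between them. Ppbp ran from 0.774 to 1.80 CPM in Control_Rosa26KO (median 1.10), from 1.19 to 130.2 in HFD_Rosa26KO (median 2.16), from 0.914 to 5.17 in Control_p53KO (median 1.78) and from 0.535 to 3.17 in HFD_p53KO (median 1.42). HFD_Rosa26KO 6 had 2500 of the 3497 Ppbp counts in the study, or 71.5%. The next library, HFD_Rosa26KO 1, had 200 counts and 10.4 CPM, 12.6-fold less than the highest. The other HFD_Rosa26KO libraries had 20 to 48 counts, inside the range of the other 3 groups.

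Pf4 had other libraries at its top. It ran from 0.793 to 12.7 CPM in Control_Rosa26KO (median 1.27), from 1.59 to 26.4 in HFD_Rosa26KO (median 2.29), from 0.616 to 50.5 in Control_p53KO (median 1.22) and from 1.23 to 6.56 in HFD_p53KO (median 1.95). The highest values of 3 groups were the libraries numbered 3: 50.5 CPM in Control_p53KO 3, 12.7 in Control_Rosa26KO 3 and 6.56 in HFD_p53KO 3. HFD_Rosa26KO 3 was not high, at 1.59 CPM.

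Of the 25 libraries, the ratio of Pf4 to Ppbp counts was highest in Control_p53KO 3, then Control_Rosa26KO 3, and lowest in HFD_Rosa26KO 6. Control_p53KO 3 had 1096 Pf4 and 112 Ppbp counts, a ratio of 9.79, and Control_Rosa26KO 3 had 218 and 31, a ratio of 7.03. HFD_Rosa26KO 6 had 507 Pf4 and 2500 Ppbp counts, a ratio of 0.203. HFD_p53KO 3 was not set apart, at a ratio of 2.78, below the 3.92 of HFD_p53KO 6. As a share of both chemokines' counts, Pf4 made up 90.7% in Control_p53KO 3 (exact Clopper-Pearson 95% interval 89.0 to 92.3), 87.6% in Control_Rosa26KO 3 (82.8 to 91.4) and 16.9% in HFD_Rosa26KO 6 (15.5 to 18.2). HFD_Rosa26KO 1, the library with the second highest Ppbp, had a share of 23.7% (18.7 to 29.3). Control_p53KO 1 had 26.3% (17.9 to 36.1), an interval that overlapped that of HFD_Rosa26KO 6. These intervals cover counting error only.

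Kupffer cell genes were high in Control_p53KO 3 as well. The 12 genes of a list of markers of these resident liver macrophages summed to 4352 CPM there, 4.01 times the median library. Of the 12, 9 were highest in that library, where 17.7% of all genes tested were also highest. Clec4f, a lectin of Kupffer cells, was at 732.6 CPM there and Vsig4, a complement receptor of the same cells, at 507.0. The list did not move as a whole: Marco, a scavenger receptor, was at 0.738 CPM there, the second lowest of the 25 libraries (median 10.2), and Timd4, a receptor for dying cells, was at 4.93 (median 4.81). The same sum was 1.24 times the median in Control_Rosa26KO 3 and 1.28 times in HFD_p53KO 3. It ran from 394.3 to 1344 CPM in Control_Rosa26KO, from 1106 to 1727 in HFD_Rosa26KO, from 770.5 to 4352 in Control_p53KO and from 528.8 to 1512 in HFD_p53KO. No gene of the list was at 0 in Control_p53KO 3, and the part of these cells in the Pf4 values was not tested.

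**Figure D2:**
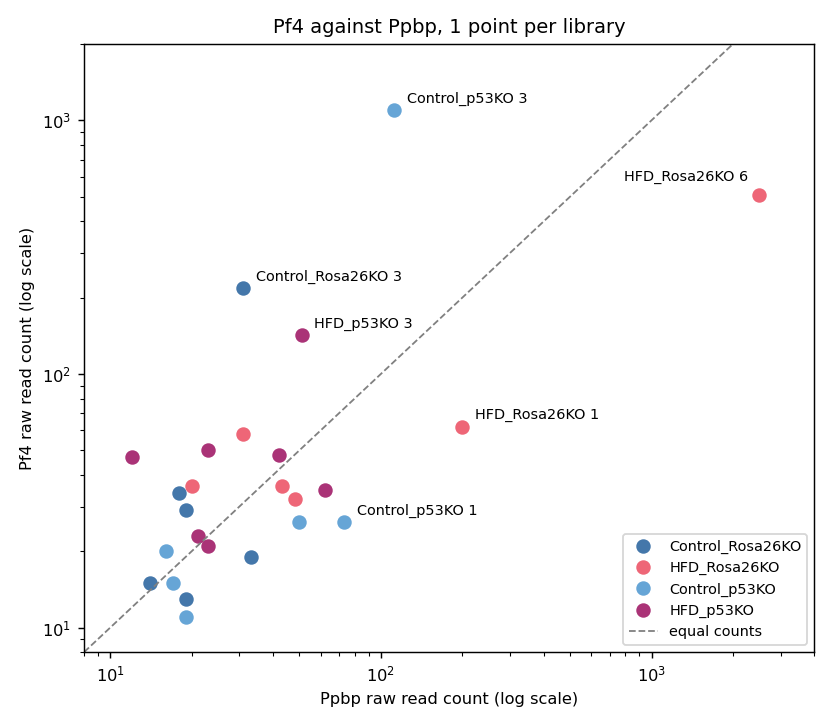
Raw Pf4 count against raw Ppbp count, 1 point per library, both axes logarithmic, with a dashed line at equal counts. Control_p53KO 3 (112 Ppbp and 1096 Pf4 counts) and Control_Rosa26KO 3 (31 and 218) lie far above the line, and HFD_Rosa26KO 6 (2500 and 507) lies far below it.

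Gp1ba, Gp5 and Gp9 encode subunits of the receptor for von Willebrand factor, which tethers platelets to a damaged vessel wall. Gp1ba (chromosome 11, 70639122 to 70642036) ran from 0.276 to 0.642 CPM in Control_Rosa26KO (median 0.506), from 0.238 to 18.4 in HFD_Rosa26KO (median 0.474), from 0.448 to 0.692 in Control_p53KO (median 0.604) and from 0.203 to 0.740 in HFD_p53KO (median 0.409). HFD_Rosa26KO 6 had 354 of its 597 counts, and its 18.4 CPM was 12.7-fold the next highest, 1.45 CPM in HFD_Rosa26KO 1. Gp5 (chromosome 16, 30307685 to 30310779) had 243 of 402 counts in HFD_Rosa26KO 6, where it reached 12.7 CPM against a median of 0.305 over all libraries. The 2 genes shared both top libraries, HFD_Rosa26KO 6 and 1, which were also the top 2 for Ppbp. Gp9 (chromosome 6, 87778072 to 87779768) had 98 of 191 counts in HFD_Rosa26KO 6 and 23 in HFD_Rosa26KO 1. Gp1bb, which encodes the remaining subunit and was not among the 10, was at 11.7 CPM in HFD_Rosa26KO 6 and 0.624 in the median library.

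Gp6 (chromosome 7, 4363965 to 4397744) encodes the platelet collagen receptor, and it was the scarcest of the 10. It had no count in 13 libraries, at most 5 counts in 24 of the libraries, and 52 counts (2.71 CPM) in HFD_Rosa26KO 6, which made 72.2% of its total. Treml1 (chromosome 17, 48359916 to 48367176), a receptor stored in alpha granules, had 175 of its 300 counts in HFD_Rosa26KO 6 and 39 in Control_p53KO 3, and was at 0 in 3 libraries. Tubb1 (chromosome 2, 174450695 to 174457882) encodes the beta-tubulin of the ring of microtubules that gives platelets their disc shape. It ran from 0 to 0.401 CPM in Control_Rosa26KO (median 0.227), from 0.119 to 16.2 in HFD_Rosa26KO (median 0.539), from 0.171 to 1.11 in Control_p53KO (median 0.481) and from 0.213 to 0.767 in HFD_p53KO (median 0.312). HFD_Rosa26KO 6 had 310 Tubb1 counts and HFD_Rosa26KO 1 had 48, and the other libraries had 24 or fewer.

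Itga2b and Itgb3 encode the 2 chains of the fibrinogen receptor, through which activated platelets stick to each other. Itgb3 also pairs with another alpha chain in endothelial and other cells. They had the highest floor of the set. Itga2b (chromosome 11, 102453297 to 102470122) ran from 2.38 to 3.91 CPM in Control_Rosa26KO (median 2.67), from 2.47 to 40.2 in HFD_Rosa26KO (median 3.06), from 2.46 to 4.52 in Control_p53KO (median 2.79) and from 1.60 to 3.37 in HFD_p53KO (median 2.86). Itgb3 (chromosome 11, 104608000 to 104670476) ran from 2.20 to 5.74 CPM in Control_Rosa26KO (median 4.16), from 3.87 to 61.3 in HFD_Rosa26KO (median 6.29), from 2.07 to 10.0 in Control_p53KO (median 6.23) and from 2.78 to 7.73 in HFD_p53KO (median 4.04). Both had about the same share of their counts in HFD_Rosa26KO 6, 34.9% for Itga2b and 31.5% for Itgb3, below the 51.3% to 72.2% of the other genes apart from Pf4 (19.4%).

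Read per kilobase of exon, each gene's own median over the 25 libraries gave a different order from HFD_Rosa26KO 6. By median, Pf4 led at 2.22 CPM per kilobase, followed by Ppbp at 1.31, Itgb3 at 0.880, Itga2b at 0.502 and Tubb1 at 0.285. In HFD_Rosa26KO 6 the order was Ppbp at 120.3, Pf4 at 36.6, Tubb1 at 11.5, Itgb3 at 10.4 and Itga2b at 7.36. Ppbp made up 40.4% of the summed counts of the 10 genes in HFD_Rosa26KO 6, 26.9% in HFD_Rosa26KO 1 and 5.38% to 21.9% in the other libraries.

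The effect of HFD in Rosa26KO livers was the only comparison in which any of the 10 genes passed edgeR's test. Ppbp rose 20.02-fold (log2 fold change 4.32 ± 0.999 SE, edgeR, adjusted p = 0.0293) and Tubb1 rose 14.9-fold (3.89 ± 0.90 SE, adjusted p = 0.0292). These were 2 of the 6 genes tested, and 1.51% of all genes tested passed in either direction and 0.446% passed as higher. The other 4 had log2 fold changes of 2.86 ± 0.79 (Gp1ba, edgeR, adjusted p = 0.0637), 1.93 ± 0.55 (Itgb3, 0.0683), 1.73 ± 0.53 (Itga2b, 0.0903) and 1.02 ± 1.04 (Pf4, 0.628). In the fit with no filter, Gp5 passed (3.35 ± 0.79, edgeR, adjusted p = 0.0422), where 0.824% of all genes did, and Gp9 (3.53, 0.0735), Gp6 (3.25, 0.210) and Treml1 (3.25, 0.157) did not. The CPM ranges of the 2 groups overlapped for all 10 genes, whereas 3.01% of all genes tested had ranges that did not overlap. Tools differed: DESeq2 called 8 of the 10 (4.08% of its genes), limma voom 0 of 6 (21.4%) and edgeR with a replicate block 0 of 6 (3.88%). DESeq2 gave Pf4 no adjusted p in any of the 5 comparisons.

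Without HFD_Rosa26KO 6, no member passed in either fit, while 1.61% of all genes tested did in the filtered one. The log2 fold change of Ppbp was then 1.48 ± 0.57 (edgeR, adjusted p = 0.188) and that of Tubb1 1.86 ± 0.61 (0.113). Gp5 was at 1.26 (adjusted p = 0.201), Gp9 at 1.74 (0.304), Treml1 at 0.78 (0.714), Gp6 at 0.089 (1), Itgb3 at 0.69 (0.300), Gp1ba at 0.32 (0.681), Itga2b at 0.25 (0.609) and Pf4 at -0.48 (0.837). With HFD_Rosa26KO 1 left out as well, Ppbp was at 0.48 and Tubb1 at 0.88 (adjusted p = 0.701 and 0.481). Leaving out single control libraries also ended the calls with little change in size: Ppbp kept a log2 fold change of 4.22 to 4.46 but an adjusted p of 0.0530 to 0.0694 without Control_Rosa26KO 1, 4, 5 or 6, and Tubb1 an adjusted p of 0.0541 to 0.0682 without Control_Rosa26KO 1, 3, 4, 5 or 6.

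No label gives a batch, and the library names form 1 unbroken series of numbers. Split by replicate number into 3 blocks of consecutive names (replicates 1 and 2, 3 and 4, and 5 onward), the difference was unequal. Mean Ppbp in HFD_Rosa26KO against Control_Rosa26KO was 6.38 against 1.28 CPM in the first block, 1.55 against 1.29 in the second and 65.8 against 1.10 in the third (n = 2 in each cell), and the third held HFD_Rosa26KO 6 beside a library at 1.30 CPM. Mean Tubb1 was 1.49 against 0.334 CPM, 0.347 against 0.199 and 8.28 against 0.110. With this block of names as a term, 1 of the 6 genes passed, Tubb1, as did 3.13% of all genes, and Ppbp no longer did (log2 fold change 3.71, edgeR, adjusted p = 0.0552).

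**Figure D3:**
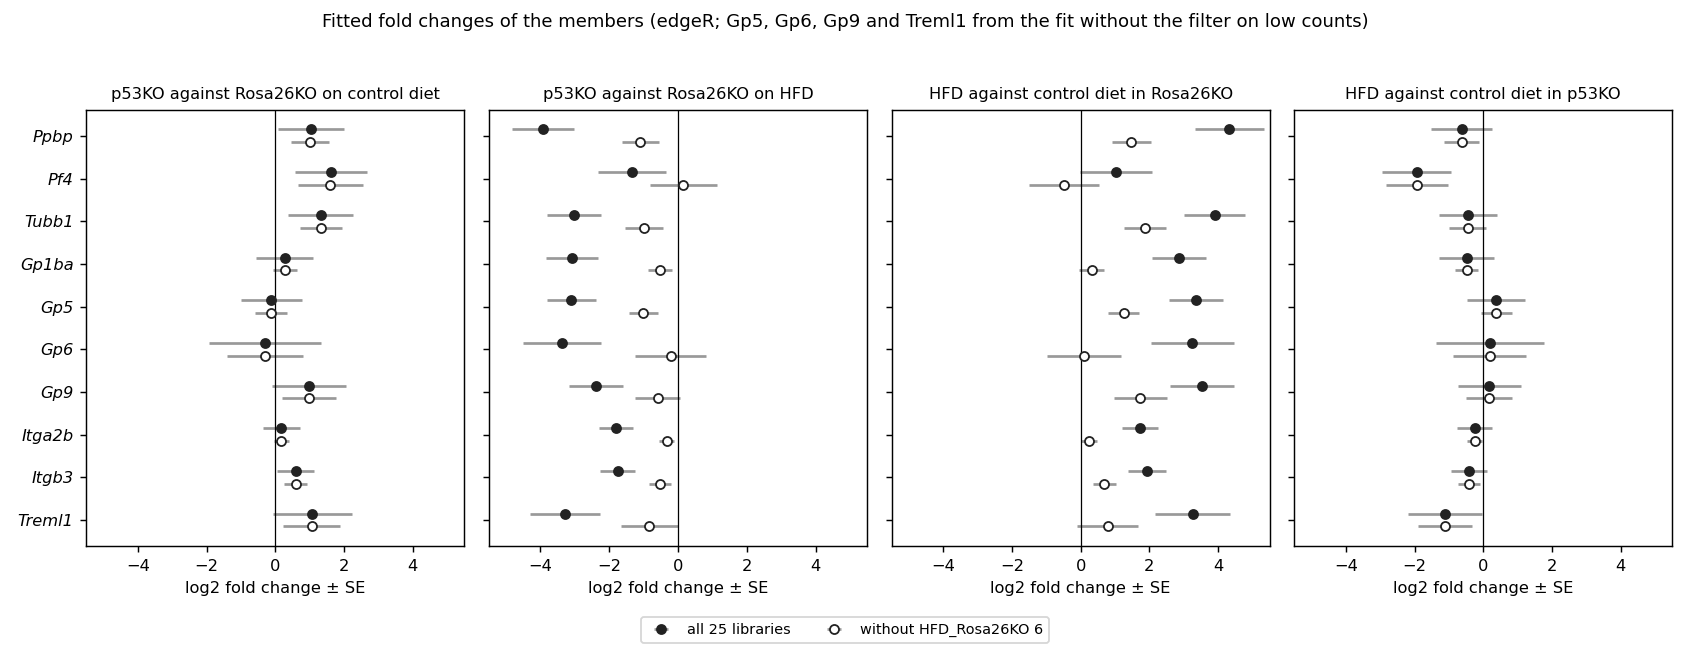
Log2 fold change with its SE for each gene in 4 comparisons, with all 25 libraries (filled) and without HFD_Rosa26KO 6 (open). In the 2 comparisons that use HFD_Rosa26KO the open points lie nearer 0 than the filled ones for all 10 genes, for Ppbp at 1.48 against 4.32 in the diet comparison, and in the other 2 the filled and open points nearly coincide.

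On HFD, p53KO livers were compared with the same HFD_Rosa26KO libraries, so this comparison and the previous one share them and their values are only set side by side. No member passed, nor did any gene (0% of 14133). Ppbp had a log2 fold change of -3.93 ± 0.91 (edgeR, adjusted p = 0.9998), Gp1ba -3.07, Tubb1 -3.02, Itga2b -1.80, Itgb3 -1.76 and Pf4 -1.34, each with an adjusted p of 0.9998. At an unadjusted p under 0.05, 5 of these 6 (all but Pf4) were lower, against 1.88% of all genes, and 509 genes were past it in either direction. Without HFD_Rosa26KO 6, 0 of the 6 were past it, and 316 genes were. DESeq2 called 1 gene of the table (0.00513%), Ppbp (log2 fold change -3.94, adjusted p = 0.0345). Without HFD_Rosa26KO 6 the log2 fold changes were -1.09 for Ppbp, -0.99 for Tubb1, -0.53 for Gp1ba, -0.52 for Itgb3, -0.33 for Itga2b and 0.15 for Pf4. None of the 10 genes had ranges without overlap, as did 0.149% of all genes tested.

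On control diet, p53KO against Rosa26KO gave no call for any gene with edgeR (0% of 14133, while 1408 had an unadjusted p under 0.05). DESeq2 called 1 gene there (0.0062%) and none of the 10. Log2 fold changes were 1.62 ± 1.04 for Pf4 (edgeR, adjusted p = 0.562), 1.32 for Tubb1, 1.03 for Ppbp, 0.59 for Itgb3, 0.27 for Gp1ba and 0.17 for Itga2b. The sign of Pf4 rested on 1 library: it was -1.49 without Control_p53KO 3 and 3.01 without Control_Rosa26KO 3. Treml1 turned from 1.08 to -0.97 without Control_p53KO 3, which had 39 Treml1 counts against 5 or fewer in the other libraries of its group. Ranges without overlap were found for 0 of the 10 genes and 0.283% of all genes tested.

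In p53KO livers, HFD changed none of the 10 genes past the threshold, while 405 genes (2.87%) passed with edgeR. DESeq2 called none of the 10 and 5.59% of genes. Log2 fold changes were -1.94 ± 0.997 for Pf4 (edgeR, adjusted p = 0.300), -0.63 for Ppbp, -0.48 for Gp1ba, -0.44 for Tubb1, -0.42 for Itgb3 and -0.24 for Itga2b. Without Control_p53KO 3, Pf4 was at 1.17 and Treml1 turned from -1.11 to 0.93. Gp5 was at 0.37, Gp6 at 0.19 and Gp9 at 0.17 in the fit with no filter. Ranges without overlap were found for 0 of the 10 genes and 1.05% of all genes tested.

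Whether the diet effect differed between genotypes was tested by the interaction, in which the Rosa26KO diet effect is subtracted from the p53KO one. With edgeR no gene passed (0% of 14133, while 1221 had an unadjusted p under 0.05), and DESeq2 called 5 genes (0.0333%), none a member. The interaction was -4.95 ± 1.31 for Ppbp on the log2 scale (edgeR, adjusted p = 0.490), -4.34 for Tubb1, -3.34 for Gp1ba, -2.96 for Pf4, -2.35 for Itgb3 and -1.97 for Itga2b. Without HFD_Rosa26KO 6 it was -2.11 for Ppbp (adjusted p = 0.745), -2.31 for Tubb1, -1.45 for Pf4, -1.12 for Itgb3, -0.80 for Gp1ba and -0.50 for Itga2b. The sign for Pf4 rested on Control_p53KO 3, without which its interaction was 0.14.

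Other genes of the lineage were also at their highest in HFD_Rosa26KO 6. Of 22 listed genes of platelet receptors and signalling, 13 were highest there, as were 11 of 27 genes of granules, lipid mediators and cytoskeleton and 8 of 15 megakaryocyte transcription factors and lineage genes. The examples that follow were chosen after their values were seen. F2rl2, a thrombin receptor of mouse platelets, was at 15.8 CPM there against 0.352 in the median library, and Alox12, the platelet lipoxygenase, at 21.8 against 1.06. Gata1, the factor that drives megakaryocyte and red cell genes, was at 4.69 against 0.0534, and Vwf, which endothelium also makes, at 77.3 against 11.7.

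The most abundant genes of those lists stood closer to their medians, and other liver cells also make many of them. Cd9 was at 44.8 CPM in HFD_Rosa26KO 6 and 39.2 in the median library, Fcer1g at 37.0 and 25.8, Clec1b at 25.3 and 16.5, and Rasgrp2 at 28.4 and 17.1. F5 was at 669.9 and 544.1 CPM, Sparc at 148.4 and 107.8, Mylk at 103.7 and 101.9, and Clec2d at 68.8 and 79.8. Among the lineage genes, Zfpm1 was at 61.4 and 69.3 CPM, Dok2 at 11.4 and 5.97 and Fli1 at 11.1 and 6.52. The summed CPM of the 3 lists in HFD_Rosa26KO 6 was 1.86, 1.48 and 1.35 times the median library, against 23.3 times for the 10 genes. The sum of receptor and signalling genes was higher in Control_p53KO 3, at 2.37 times the median, with 6 of the 22 genes highest there.

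With HFD in Rosa26KO, 0 of 17 receptor and signalling genes, 0 of 24 granule and cytoskeleton genes and 0 of 12 lineage genes passed. Their median log2 fold changes were 0.53, 0.67 and 0.39, with 15, 20 and 9 genes above 0, beside a median of 0.003 over all genes tested. Without HFD_Rosa26KO 6 those medians were 0.35, 0.19 and 0.25. In p53KO livers the medians with HFD were -0.38, -0.28 and -0.25 beside -0.02 over all genes, and 1 gene passed: Nfe2, the megakaryocyte factor of late platelet formation, fell by 1.94 on the log2 scale (SE 0.53, edgeR, adjusted p = 0.0461). That is 1 of the 53 listed genes tested, or 1.89%, below the 2.87% of all genes, and the call on Nfe2 was lost in 15 of 25 fits with 1 library left out (log2 fold change -2.27 to -1.67, adjusted p up to 0.102). Of 11 genes that the liver uses to control platelets and clotting, among them Fga, Fgb, Fgg and F2, none passed in any of the 5 comparisons. Thpo, which encodes thrombopoietin, had log2 fold changes of -0.53 with HFD in Rosa26KO (edgeR, adjusted p = 0.164) and -0.24 in p53KO (0.532).

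Genes of other blood cells were also high in HFD_Rosa26KO 6. The erythroid list summed to 5.17 times the median library there, with 11 of its 17 genes at their highest, and to 6.95 times in HFD_Rosa26KO 1, with 5 of 17. Its sum ran from 727.4 to 1381 CPM in Control_Rosa26KO, from 984.5 to 8274 in HFD_Rosa26KO, from 730.9 to 1925 in Control_p53KO and from 928.2 to 4662 in HFD_p53KO. Hba-a1, a globin gene whose counts can be split with its near-identical copy Hba-a2, was at 2167 CPM in HFD_Rosa26KO 6, 2838 in HFD_Rosa26KO 1 and 413.9 in the median library. Slc4a1, the anion exchanger of the red cell membrane, rose with HFD in Rosa26KO (log2 fold change 4.94 ± 1.26 SE, edgeR, adjusted p = 0.0477), and no gene of the list passed without HFD_Rosa26KO 6. The call on Slc4a1 was lost in 16 of 25 fits with 1 library left out (4.02 to 5.20, adjusted p up to 0.108).

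The neutrophil list summed to 6.02 times the median in HFD_Rosa26KO 6, with 2 of its 17 genes highest there, and to 28.1 times in Control_p53KO 1, where the 10 platelet genes summed to 22.04 CPM, the fifth highest of the 25 libraries. Its sum ran from 17.0 to 959.6 CPM in Control_Rosa26KO, from 117.8 to 1005 in HFD_Rosa26KO, from 22.5 to 4684 in Control_p53KO and from 130.4 to 3955 in HFD_p53KO. Much of that sum was 1 gene, Lcn2, which hepatocytes also make: it was 98.2% of the sum in HFD_p53KO 2 (3885 of 3955 CPM), 87.2% in Control_Rosa26KO 1, 84.4% in Control_p53KO 1 and 53.2% in HFD_Rosa26KO 6. The other 16 genes summed to 23.3 times the median in Control_p53KO 1, 15.0 times in HFD_Rosa26KO 6 and 2.23 times in HFD_p53KO 2. In HFD_Rosa26KO 6 the sums of progenitor and mast cell genes, Kupffer genes, hepatocyte genes and endothelial genes were 1.86, 1.59, 1.51 and 1.46 times the median, and no marker of these lists was at 0. Whether blood left in the tissue, or cells of the marrow lineage lodged in it, had a part in the platelet values was not tested.

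**Figure D4:**
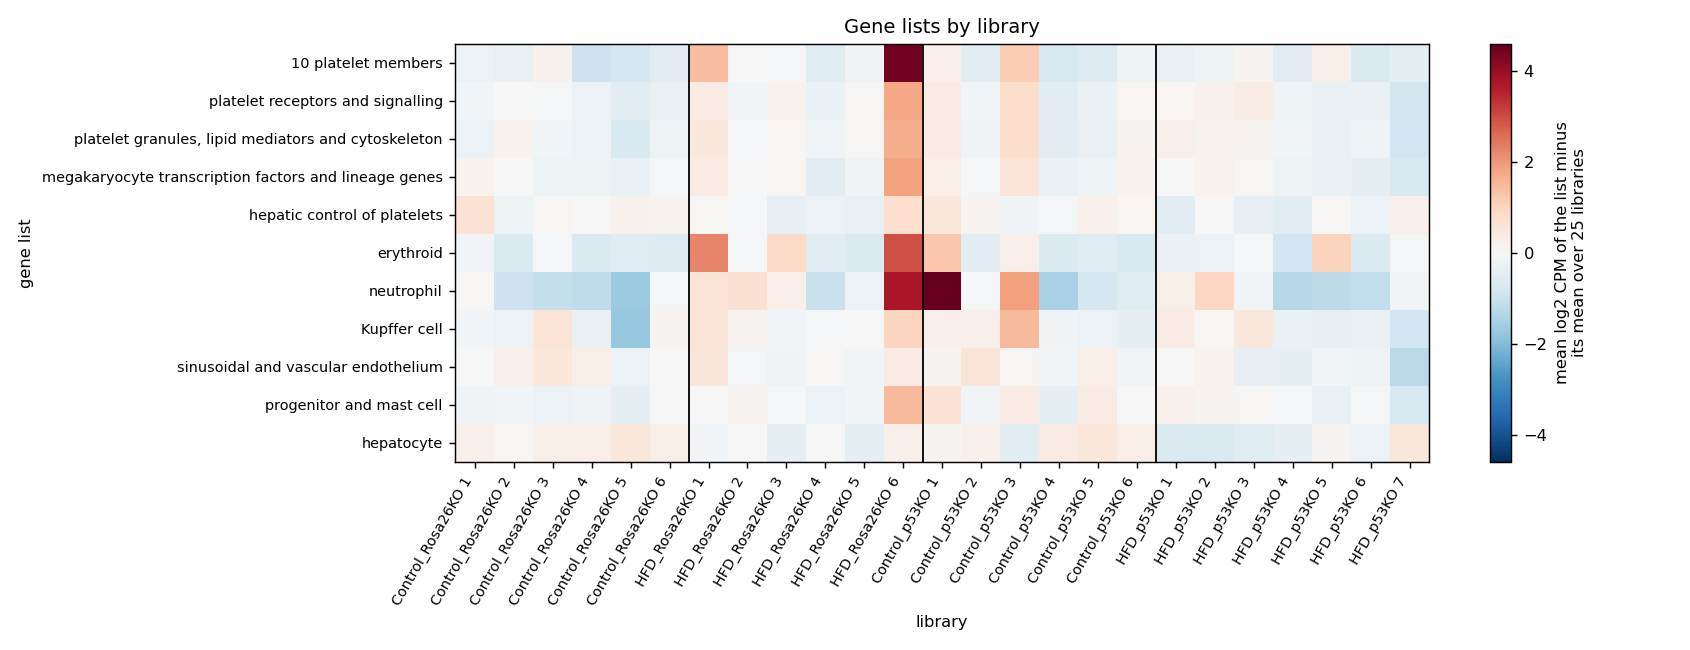
Mean log2 CPM of each gene list in each library minus its mean over the 25 libraries (red above, blue below), with lines between the 4 groups. The row of the 10 platelet genes is darkest in HFD_Rosa26KO 6 (4.44), followed by HFD_Rosa26KO 1 (1.42) and Control_p53KO 3 (1.18), and the neutrophil row is darkest in Control_p53KO 1.

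Across libraries the ranks of the 10 genes were only loosely alike, with or without the extreme library. Over the 45 pairs of genes, Spearman's rho of log2 CPM over the 25 libraries ran from 0.11 to 0.77 (median 0.47), and from -0.02 to 0.74 (median 0.40) without HFD_Rosa26KO 6. Pearson's r over the same pairs turned more on that library, with a median of 0.82 with it and 0.51 without it. Gp6 had no count in 13 libraries, so many of its ranks are tied. Outside the set, the genes most like the mean of the 10 included Bank1 (rho 0.80 over 25 libraries), Zbtb8b (0.78), Cdr2 (0.78), P2ry12 (0.78), Ralb (0.77), Slc4a1 (0.76), Atp8a1 (0.76), Ank1 (0.76) and Tslp (0.75). P2ry12, the platelet receptor for ADP, was at 21.4 CPM in Control_p53KO 3, 9.43 in HFD_Rosa26KO 6 and 4.52 in the median library. Without HFD_Rosa26KO 6 and 1, rho was 0.72 for P2ry12, and it did not stand out among the genes named. In the same setting rho was 0.79 for Tslp, 0.76 for Bank1, 0.75 for Zbtb8b and 0.73 for Ralb. It was 0.72 for Cdr2 and for Atp8a1, and 0.69 for Slc4a1 and for Ank1. These are descriptions over libraries that each share 1 depth and 1 tissue piece across genes.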

How the data were processed

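Polyadenylated RNA of 25 flash-frozen livers was sequenced as paired reads of 75 bases, per the labels. The deposited values are raw read counts per gene. The submitters' processing notes name STAR, HOMER, GRCm38 and mm10. Their roles, versions, the annotation and the use of strand were not given in the sources used here, so reads of overlapping or antisense genes cannot be told apart. No exon of the 10 genes overlapped another gene in GENCODE M21, which gave positions and exon lengths. Promoter sequences and start sites are RefSeq's for GRCm38.p6.

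The members and lists were chosen with earlier results of these data known. All tests used edgeR 4.0.16 (R 4.3.3): TMM scaling, filterByExpr (minimum count 10, minimum total 15), the robust quasi-likelihood fit over all 25 libraries with 1 mean per group, and Benjamini-Hochberg adjustment over all genes tested with a threshold of 0.05. CPM is the raw count over the TMM-scaled library size. Libraries were grouped by the diet and genotype of their labels. Alternatives were RLE scaling, no filter, no robust option, DESeq2 1.42.0, limma voom 3.58.1 with sample quality weights, only the groups compared, a replicate block, blocks of consecutive library names (no label calls them a batch) as a term, and each library left out. The scripts were tested on simulated counts. Leaving out 2 libraries together, and leaving out single libraries from the fit with no filter, were added after seeing the data.

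All 10 members are named. Of the lists, genes are named that passed the threshold, were among the 4 most abundant, or are defining markers given beside a result. The 10 genes most like the members were taken by Spearman's rho of log2 CPM (prior count 2), passing over model and clone names. A few genes that these rules name are not reported here. The lists cover platelet receptors and signalling, granules and cytoskeleton, megakaryocyte factors, hepatic control of platelets, and erythroid, neutrophil, Kupffer, endothelial, progenitor and mast, and hepatocyte genes. Figures were drawn with matplotlib 3.10.9 in Python 3.11.15. The libraries held no identical pair.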

Additional observations from a re-analysis of the deposited data

Results flagged for a closer look

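The level of each of the 10 genes was examined in each of the 4 groups for a highest or lowest library whose gap to the nearest other exceeded Dixon's 95% critical value as a share of the group's range. Of 40 combinations 18 did, 10 of them in HFD_Rosa26KO 6. Chance marks about 1 in 20 only where values are independent and normally spread. The 40 combinations share libraries and many rest on few counts, so 18 of 40 does not measure an excess over chance. HFD_Rosa26KO 6 stood apart for all 10 genes within its group, with Ppbp at 130.2 CPM, Itgb3 at 61.3, Itga2b at 40.2, Pf4 at 26.4, Gp1ba at 18.4, Tubb1 at 16.2, Gp5 at 12.7, Treml1 at 9.12, Gp9 at 5.11 and Gp6 at 2.71.

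Control_p53KO 3 stood apart in its group for Pf4 (50.5 CPM), Treml1 (1.80) and Gp9 (0.369). Control_Rosa26KO 3 stood apart for Pf4 (12.7 CPM), and HFD_p53KO 3 for Pf4 (6.56) and Gp1ba (0.740). HFD_p53KO 5 stood apart for Gp9 (0.562 CPM) and Gp6 (0.256), which rest on 11 and 5 counts.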

How the results depend on the processing

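The calls on the 10 genes depended on the method and on which libraries were in the fit. With HFD in Rosa26KO, edgeR called 2 members and 213 genes, DESeq2 8 members and 627 genes, limma voom 0 and 3023, the fit of only the groups compared 0 and 653, the replicate block 0 and 549, a term for blocks of library names 1 and 442, the fit without HFD_Rosa26KO 1 and 6 together 0 and 92, and the fit without Control_p53KO 3 and HFD_Rosa26KO 6 together 0 and 389. The fit with no filter called 3 members. Leaving out 1 library at a time gave 0 to 4 members and 93 to 509 genes, with 0 members not only without HFD_Rosa26KO 6 but also without single control libraries. With the replicate block Ppbp was at 2.73 (adjusted p = 0.121) and Tubb1 at 2.91 (0.0741) on the log2 scale. With limma voom they were at 1.49 (0.187) and 2.03 (0.0610), and in the fit of only the groups compared Ppbp was at 4.34 (0.0761). Gp1ba and Itgb3 passed with DESeq2 (2.89 and 1.95, adjusted p = 0.00665 and 0.00993) and without HFD_Rosa26KO 4 (3.11 and 2.14, edgeR, adjusted p = 0.0414 and 0.0452), and Itga2b with DESeq2 (1.74, 0.0236). The call on Gp5 was lost in 13 of 25 fits with 1 library left out.

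With HFD in p53KO, all genes called numbered 405 by edgeR, 860 by DESeq2, 2184 by limma voom, 121 with only the groups compared, 785 with the replicate block, 633 with the term for library names and 173 to 760 with 1 library left out, and 0 members were called in each. DESeq2 called 1 gene and 0 members for genotype on control diet, 1 gene and 1 member (Ppbp) for genotype on HFD, and 5 genes for the interaction. For genotype on either diet and for the interaction, edgeR called 0 genes with any 1 library left out.

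Direction changed for several members, Pf4 and Gp6 most often. With limma voom the log2 fold change of Pf4 was -0.13 for genotype on control diet, 0.84 for HFD in p53KO and 0.065 for the interaction. Without Control_p53KO 3 and HFD_Rosa26KO 6 together, Pf4 was at -1.49 for genotype on control diet and 0.15 on HFD. In that setting it was at -0.48 for HFD in Rosa26KO, 1.17 for HFD in p53KO and 1.64 for the interaction. Under the same setting Treml1 was at -0.97, 0.93 and 0.14 for genotype on control diet, HFD in p53KO and the interaction, and Gp6 at 0.17 for the interaction. Without HFD_Rosa26KO 1 and 6 together, genotype on HFD gave 0.33 for Pf4, 0.00047 for Tubb1, 0.060 for Gp1ba, 0.17 for Gp6 and 0.91 for Gp9. HFD in Rosa26KO then gave -0.65 for Pf4, -0.27 for Gp1ba, -0.29 for Gp6 and -0.023 for Itga2b, and the interaction gave 0.47 for Gp6. The cause of these changes beyond the libraries left out was not tested.

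With 1 library left out, the range on control diet was -1.49 to 3.01 for Pf4, -0.47 to 0.083 for Gp5, -0.58 to 0.59 for Gp6 and -0.97 to 1.56 for Treml1. It was -1.82 to 0.15 for Pf4 by genotype on HFD and -0.48 to 2.42 with HFD in Rosa26KO. With HFD in p53KO it was -2.42 to 1.17 for Pf4, -1.57 to 0.40 for Gp6, -0.28 to 0.51 for Gp9 and -1.36 to 0.93 for Treml1. For the interaction it was -4.36 to 0.14 for Pf4 and -4.80 to 0.10 for Gp6.

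Equal replicate numbers were not treated as pairs: of 36 pairs of libraries with the same number 17 had a correlation of deviations over 0.1 (median 0.08), and 8 of 24 libraries were closest to their own number. Replicate 7 exists in 1 group only, so the replicate block absorbs that library. Counts of 0 to 11 in most libraries limit Tubb1, Gp1ba, Gp5, Gp6, Gp9 and Treml1, and 1 count is a large step there. In Control_Rosa26KO, Tubb1 averaged 4.17 counts and Gp5 4.67, so their calls with HFD start from such low counts.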
